A study of Mus musculus with 32 samples.

Results

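The circadian clock genes Dbp, Nr1d1, Per1, Per2 and Arntl were followed through the chromatin accessibility profiles of brain and liver in mice that lack a gene for the phenylalanine tRNA. Their peaks were those overlapping, by at least 1 base, a fixed window around each gene on the mouse genome build GRCm38, of 25 kb for Dbp, 27 kb for Nr1d1, 35 kb for Per1, 65 kb for Per2 and 130 kb for Arntl. The Arntl window leaves out the first part of the RefSeq gene, including its outermost start. Accessibility was measured by ATAC-seq, which uses a transposase to insert sequencing adapters where DNA is open, on nucleosome-free fragments from nuclei of brain or liver tissue. Over 6 comparisons of a knockout with wild type the windows held 458 of the 1040049 consensus peaks, and 64 of the 85467 peaks that the authors listed as different between the groups. Because each comparison has its own peak calls, the same element is counted once in every list it entered.

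The mice were on a C57BL/6N background and homozygous for a CRISPR-Cas9 deletion, or wild type. The paper's methods describe them as male and matched for age and litter, but also speak of animals taken from different litters. Its reporting summary gives both sexes for the study, so the sex and litter behind single libraries are uncertain here. The tRNA-Phe-1-1-/- mice (Phe11) were compared with 4 wild-type mice in each tissue, 4 against 4. The tRNA-Phe-2-1-/- mice (Phe21) and the mice labelled tRNA-Phe-3-1-/- (Phe31) were compared 3 against 3 in each tissue, with a doubt about the label in liver that is given with the deleted loci. The series held 32 libraries, 15 from brain and 17 from liver. Wild-type brains 1 and 3 entered all 3 brain comparisons and wild-type brain 2 entered those of Phe21 and Phe31, and wild-type livers 1, 3 and 24 entered both the Phe11 and the Phe21 liver comparison, so these comparisons are not independent of each other. The liver libraries labelled Phe31 and 3 wild-type livers carry a batch number of their own in the labels. The columns of the Phe31 liver comparison give no sample numbers. That it used these 3 wild-type livers, and shares no library with any other comparison, was therefore inferred.

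The mammalian clock is a feedback loop of transcription that runs in nearly every tissue. The protein of Arntl (BMAL1) pairs with CLOCK and binds E-box elements to switch on the period genes Per1 and Per2, the nuclear receptor gene Nr1d1 (REV-ERB alpha) and Dbp. The PER proteins then inhibit BMAL1 and CLOCK, REV-ERB alpha represses Arntl through ROR elements (ROREs), and DBP carries the rhythm to output genes through D-boxes. In liver these genes swing strongly over the day and respond to feeding, Arntl in the opposite phase to the others.

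The deleted loci were checked first, as normalised ATAC-seq counts over each tRNA gene. In Phe11 liver the tRNA-Phe-1-1 locus held 1.24 to 5.31 over the 4 libraries against 18.6 to 26.7 in wild type, and in Phe11 brain 36.7 ± 5.83 (SD, n = 4) against 108 ± 9.29 (SD, n = 4). The tRNA-Phe-2-1 locus fell to between 0 and 1.83 in the Phe21 brains against 1.92 to 12.8 in wild type. In the Phe21 livers it fell to between 0 and 0.602 against 1.19 to 4.20. Each was below every wild-type library of its comparison, but wild-type counts were low and in brain the groups nearly met. The tRNA-Phe-3-1 locus fell to between 0.940 and 2.84 in the Phe31 brains against 42.3 to 48.3 in wild type. In the liver libraries labelled Phe31, tRNA-Phe-3-1 kept 9.01, 9.62 and 10.6 against 9.91, 13.2 and 15.6 in wild type, so the groups overlapped. In these same libraries it was tRNA-Phe-1-1 that held 0, 0 and 2.25 against 5.66, 6.25 and 10.7. The locus that was lost is thus not the one the label names, and these livers are called the liver libraries labelled Phe31 throughout. Among the wild-type livers of the Phe11 comparison, libraries 1 and 22 had a chi-square of 0.437 per degree of freedom over 191 tRNA loci and libraries 3 and 24 had 0.667 over 201, both below the value near 1 of independent sampling, and the other 4 pairs had 0.920 to 1.15. These 4 libraries may therefore hold fewer than 4 independent samples, and no SD is given for them. Libraries 3 and 24 also entered the Phe21 liver comparison, and the group means of the peaks could not be recomputed with such a pair counted as 1 sample. The tissue labels fitted the peaks at marker genes, since 5 of 5 liver markers had a peak at their start in every liver list and at most 1 had one in a brain list, while 4 or 5 of 6 brain markers had one in the brain lists and 1 or 2 in the liver lists.

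The sequences in front of the genes are shown because the clock proteins reach these genes through short motifs that lie in the windows measured here. RefSeq promoters on GRCm38.p6, which span 250 bases before to 50 after a start, were at hand for 4 of the 5 genes and were searched on both strands. The motifs were the E-box CACGTG, the E-box variant CACGTT, the D-boxes TTATGTAA, TTACGTAA and TTATGCAA, the cyclic AMP element TGACGTCA and the RORE, and the last D-box was added after the sequences had been seen. Capitals mark the matches in the 250 bases before each start, written 5′ to 3′ in the direction of transcription. Dbp is shown for chr7:45704997-45705246 on the plus strand, Nr1d1 for chr11:98775378-98775627 on the minus strand, Per1 for chr11:69098699-69098948 on the plus strand before the start inside the gene, and Arntl for chr7:113207215-113207464 on the plus strand.
Dbp: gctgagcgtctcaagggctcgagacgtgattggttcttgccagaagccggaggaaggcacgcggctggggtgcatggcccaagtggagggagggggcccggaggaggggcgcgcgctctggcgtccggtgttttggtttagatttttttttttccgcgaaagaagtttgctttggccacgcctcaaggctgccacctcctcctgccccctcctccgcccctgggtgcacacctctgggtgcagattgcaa
Nr1d1: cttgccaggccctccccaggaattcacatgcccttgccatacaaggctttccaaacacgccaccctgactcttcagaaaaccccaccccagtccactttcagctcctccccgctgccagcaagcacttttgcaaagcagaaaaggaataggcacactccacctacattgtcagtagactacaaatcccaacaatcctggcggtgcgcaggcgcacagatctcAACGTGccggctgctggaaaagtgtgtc
Per1: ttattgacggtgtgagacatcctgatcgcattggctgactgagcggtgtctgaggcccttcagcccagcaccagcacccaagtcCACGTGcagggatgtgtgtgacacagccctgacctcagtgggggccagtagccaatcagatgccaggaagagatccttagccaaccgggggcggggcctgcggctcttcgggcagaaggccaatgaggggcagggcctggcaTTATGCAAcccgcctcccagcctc
Arntl: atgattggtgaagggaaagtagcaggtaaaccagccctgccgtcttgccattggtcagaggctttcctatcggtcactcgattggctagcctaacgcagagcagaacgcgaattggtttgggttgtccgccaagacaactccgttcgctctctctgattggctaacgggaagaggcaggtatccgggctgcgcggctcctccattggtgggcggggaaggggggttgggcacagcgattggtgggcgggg
The Per1 stretch held 1 E-box, CACGTG, 166 bases before the start, a motif found in 7.15% of the 32851 promoters searched, and 1 D-box, TTATGCAA, found in 0.743%. The Nr1d1 stretch held the reverse complement of CACGTT, which 4.68% of promoters hold. In Arntl the match was a RORE just after the start, shown here in its 30 bases at chr7:113207527-113207556 on the plus strand.
Arntl RORE: gggaaggcagAAAGTAGGTCAgggacggag
A RORE was found in 0.384% of promoters. None of the motifs searched was found in the Dbp promoter.

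Each start examined, which for Arntl were the 2 with a promoter entry, lay under a peak in all 6 comparisons. The windows held 84 to 89 consensus peaks in the brain lists and 63 to 69 in the liver lists. Arntl, the longest of the genes, had 37 to 43 peaks in brain and 11 to 21 in liver, while Per2 had 13 to 15 in brain and 18 to 21 in liver. In the 5 lists that carry a score, the peaks at the starts of Dbp, Nr1d1, Per2 and Arntl and at the upstream start of Per1 ranked from the 96.8th percentile upwards. The starts inside Per1 ranked between the 77.6th and 98.6th percentile.

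The question asked of the peaks was which of them differed between knockout and wild type, and whether the clock genes moved as a group. For peaks, the deposited values are the authors' mean concentration of each group, the log2 of the mean normalised reads, given for the peaks they listed at a false discovery rate of at most 0.05. A concentration for single libraries was not used here, so no spread between libraries stands beside these values and no test was added to the authors' listing. A difference below is the knockout concentration minus the wild-type concentration on the log2 scale, and a peak that was not listed has no value. In tissue, fewer cells of a type and less open chromatin per cell cannot be told apart.

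In Phe11 brain, 20 of the 89 peaks were listed (22.5%), beside 16.3% of all 269579 peaks and 17.3% of the peaks at RefSeq promoters. In Phe21 brain 4 of 84 were listed (4.76%) beside 0.711% of all peaks and 2.55% at promoters, and in Phe31 brain 0 of 89 were listed, where the whole list held 1 peak (0.000465%). In Phe11 liver 3 of 69 were listed (4.35%), close to the 4.14% of all peaks. In Phe21 liver 13 of 63 were listed (20.6%) beside 14.4% of all peaks and 17.9% at promoters. The liver libraries labelled Phe31 had the highest share, 24 of 64 (37.5%), about that of promoter peaks (36%) and above that of all peaks (18.9%).

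**Figure D1:**
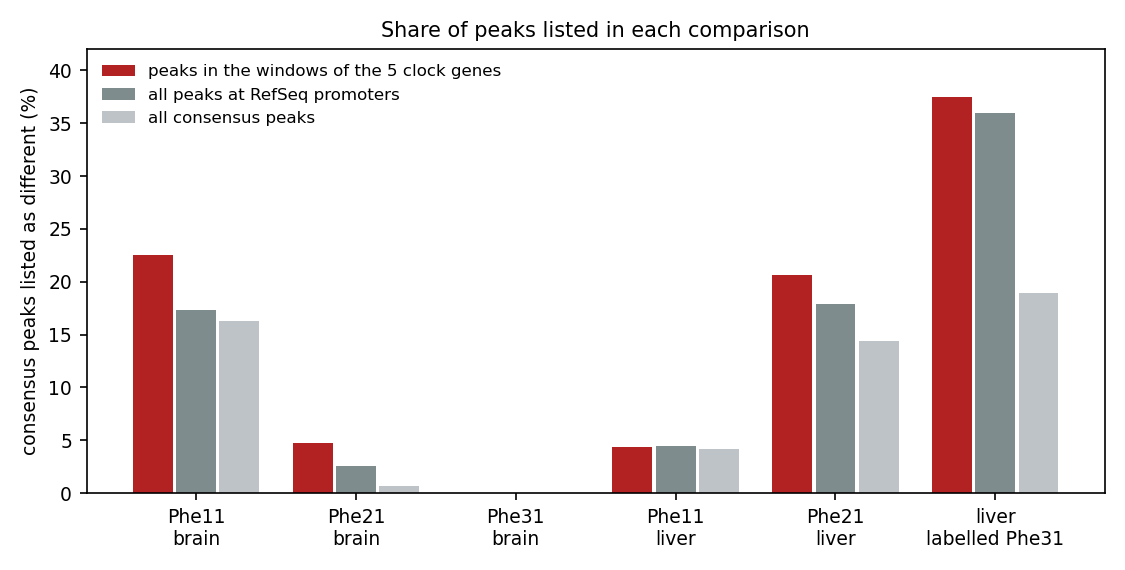
Bars give the percentage of consensus peaks that the authors listed as different in each of the 6 comparisons, for the windows of the 5 clock genes, for all peaks at RefSeq promoters and for all peaks. The clock genes stood at 37.5% in the liver libraries labelled Phe31, where promoters stood at 36%, and at 0 in Phe31 brain.

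The direction set the comparisons apart. Of the 24 peaks listed for the liver libraries labelled Phe31, 22 were lower, 2 were higher, and of the 21 in the windows of Dbp, Nr1d1, Per1 and Per2 all 21 were lower, with a median difference of -0.63. Lower peaks were common in that comparison, where 12.1% of all peaks and 28.4% of promoter peaks were listed as lower, 6.85% of all peaks were listed as higher and the median over all listed peaks was -0.40. Measured from that median, 17 of the 22 stayed lower and 5 did not, which were the peaks at the starts of Arntl and Per2, at the start inside Per1 and at the neighbouring genes Sphk2 and Hes6. In Phe21 liver 9 of 13 were higher and 4 lower, where 7.29% and 7.07% of all peaks were, with a median of 0.46 beside 0.27 over all listed peaks of that comparison, and all 13 kept their direction when measured from that median. In Phe21 brain all 4 were higher, where 0.426% of all peaks were listed as higher and 0.285% as lower. Of the 4, those at the starts of Dbp and Hes6 are promoter peaks, of which 97.9% of those listed in this comparison were higher. In Phe11 liver all 3 were higher, where 1.95% were listed as higher and 2.19% as lower. In Phe11 brain 16 of 20 were lower and 4 higher, where 12.2% and 4.04% of all peaks were, with a median of -0.235 against -0.89 over all listed peaks, and measured from -0.89 4 were lower and 16 higher.

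**Figure D2:**
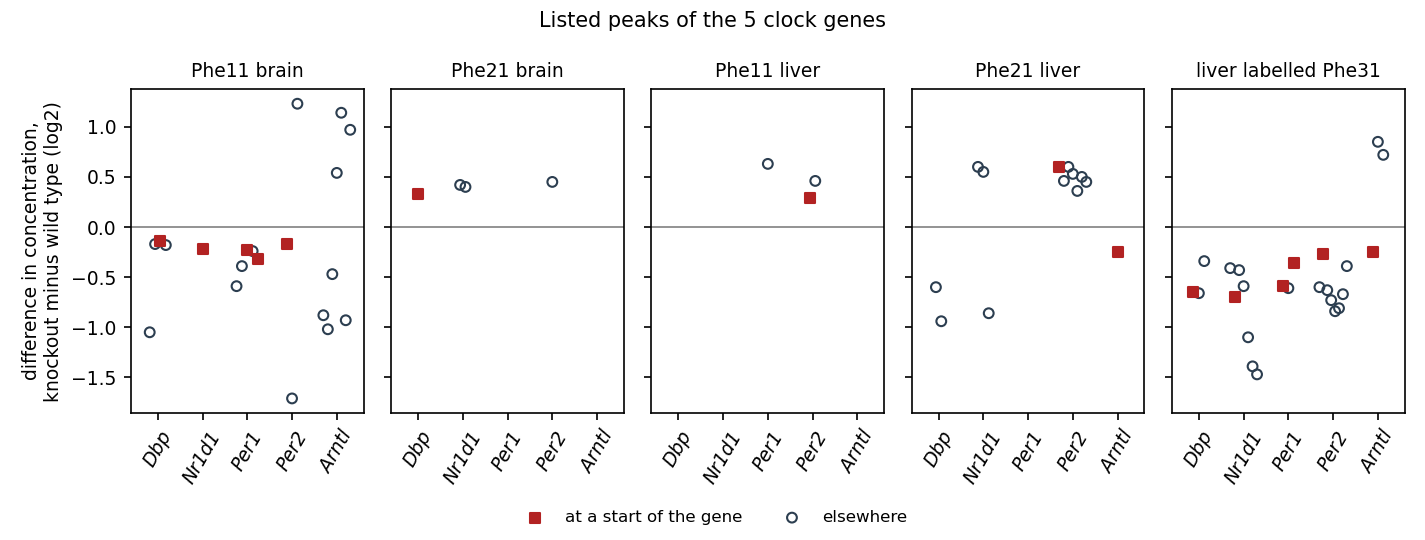
Each symbol is a listed peak, placed by gene and by its difference in concentration between knockout and wild type (log2), with squares for peaks at a start of the gene and circles for others. In the liver libraries labelled Phe31 the peaks of Dbp, Nr1d1, Per1 and Per2 all lie below 0, and in Phe21 liver the 7 Per2 peaks all lie above 0. Measured from the median of all listed peaks, 12 of 20 in Phe11 brain, 5 of 24 in the liver libraries labelled Phe31 and 1 of 4 in Phe21 brain change direction. Phe31 brain had none.

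Arntl encodes the activator of the loop. RefSeq places it at chr7:113178471-113314126 on the plus strand, and its peak covered both starts that have a promoter entry. That peak was listed in 2 comparisons, both in liver. In Phe21 liver its concentration was 9.63 in the knockout and 9.88 in wild type, a difference of -0.25. It was 9.21 against 9.46, also -0.25, in the liver libraries labelled Phe31. Both starts were thus at 84.1% of wild type, but only the Phe21 value was lower than the median of its own comparison. The liver libraries labelled Phe31 also listed a pair of intragenic peaks that were higher, 34.9 kb from the start at 5.24 against 4.39 (0.85) and 43.5 kb from the start at 6.64 against 5.92 (0.72). These were the only 2 higher peaks of the 5 genes in that comparison. In Phe11 brain the start was not listed, and 7 intragenic peaks were, 3 of them higher and 4 lower, between -1.02 and 1.14. Of the 43 Arntl peaks in that list these were 16.3%, the same share as over all peaks.

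Per1 and Per2 encode the inhibitors of BMAL1 and CLOCK. RefSeq places Per1 at chr11:69095108-69109965 on the plus strand, with an upstream start and others inside the gene. The peak at the upstream start had, in the liver libraries labelled Phe31, a concentration of 8.44 against 9.03 in wild type, a difference of -0.59 or 66.4% of wild type. The intragenic peak 2.0 kb from that start had 6.44 against 7.05 (-0.61). The peak over the inner start, whose E-box and D-box are printed above, had 7.15 against 7.51 (-0.36). All 3 listed Per1 peaks in this comparison were thus lower, the first 2 by more than the median of -0.40 and the third by less. Among the 4149 listed promoter peaks of that comparison, 12.7% fell by more than the peak at the upstream start of Per1 and 43.2% by more than the one at the inner start.

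In the other livers Per1 itself had no listed peak. The 1 listed peak of its window in Phe11 liver, at 6.47 against 5.84 (0.63), lay 15.7 kb from the start, beyond the end of the gene, over the threonine and serine tRNA genes n-TTagt5 and n-TScga3. In Phe11 brain 5 of 16 Per1 peaks were listed and all 5 were lower. The upstream start had 10.15 against 10.38 (-0.23) and the inner start 9.40 against 9.72 (-0.32), so both were at 80.1% to 85.3% of wild type. The farthest upstream, 8.5 kb before the start, had 8.08 against 8.67 (-0.59). The gene Vamp2 lies between Per1 and this peak, and also between Per1 and the listed peak at 7.8 kb (-0.39). The upstream start sat near the median of the listed promoters of that comparison (-0.225). All 5 differences were smaller in size than the median of all its listed peaks, so measured from the latter all 5 would be higher.

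Per2 had the most listed peaks in liver. RefSeq places it at chr1:91415977-91459351 on the minus strand. The peak at its start had 9.24 in Phe21 liver against 8.64 in wild type, a difference of 0.60 or 152% of wild type. In Phe11 liver it had 8.95 against 8.66 (0.29). It had 8.86 against 9.13 (-0.27) in the liver libraries labelled Phe31. It was therefore higher in 2 comparisons, which share 3 wild-type livers, and lower in the comparison with separate wild-type livers, where the difference was smaller than the median of all listed peaks. In Phe21 liver only 12% of the 2043 listed promoter peaks rose by more than the Per2 start.

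Inside the gene the contrast was wider. In Phe21 liver 6 intragenic peaks were listed, at 3.3, 13.1, 16.7, 19.3, 22.7 and 38.6 kb from the start, and all 6 were higher, by 0.36 to 0.60. The liver libraries labelled Phe31 listed the elements at 3.3, 13.1, 16.5, 19.2 and 38.8 kb, and all were lower, with differences of -0.84 to -0.63. The peak at 13.1 kb, for instance, had 8.34 against 7.74 in Phe21 liver, and 7.28 against 8.01 in the liver libraries labelled Phe31. The peak at 19.3 kb had 8.32 against 7.96 in the former, and at 19.2 kb 7.18 against 7.99 in the latter. The 5 intragenic elements listed in both comparisons overlapped in position and had opposite directions in each case, as did the start. In Phe11 liver the element at 38.6 kb was the other listed Per2 peak, with 7.79 against 7.33 (0.46). Upstream of the gene, at 6.2 kb, the liver libraries labelled Phe31 had 5.43 against 6.03 (-0.60), and 45.9 kb from the start, at the neighbouring gene Hes6, 8.91 against 9.30 (-0.39).

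**Figure D3:**
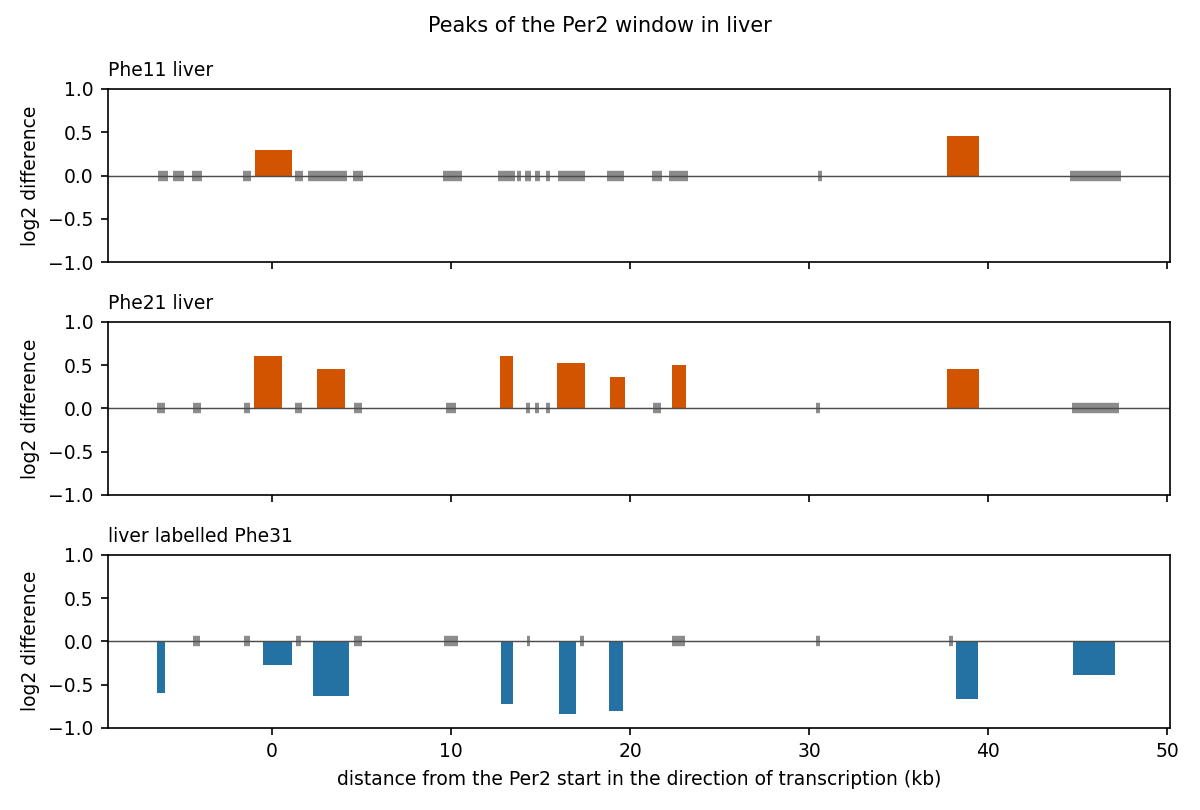
Listed peaks of the Per2 window in the 3 liver comparisons, drawn by their width along the distance from the Per2 start (kb, in the direction of transcription) with the height giving the difference in concentration (log2, knockout minus wild type), and grey blocks for peaks not listed. In Phe21 liver all 7 were higher, in the liver libraries labelled Phe31 all 8 were lower, and in the latter the start and the peak at Hes6 turn higher when measured from the median of all listed peaks.

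In brain the Per2 start was listed in Phe11 only, at 10.29 against 10.46 (-0.17, or 88.9% of wild type). The other Phe11 brain peaks of the window were small ones, 2.49 against 4.20 at 16 kb (-1.71) and 3.92 against 2.69 at 53.4 kb (1.23). Phe21 brain listed 1 peak of the window, at the start of Hes6, with 9.09 against 8.64 (0.45).

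Nr1d1 encodes REV-ERB alpha, the repressor of Arntl. RefSeq places it at chr11:98767932-98775377 on the minus strand, with its end overlapping Thra, which runs the other way, and with the long non-coding RNA gene Gm31862 starting beside its start. Its window held the largest differences of the 5 in the liver libraries labelled Phe31, in small peaks around and beyond the end of the gene. In that comparison 7 of its 13 peaks were listed and all were lower. The start had 7.75 against 8.45, a difference of -0.70 or 61.6% of wild type, and 6.58% of listed promoter peaks fell by more. The peak 1.3 kb into the gene had 7.91 against 8.34 (-0.43) and the one 2.4 kb in had 5.83 against 6.42 (-0.59). Around the end of the gene 3 small peaks, 6.8 to 8.4 kb from the start, had 36.1% to 46.7% of wild type. Those at 7.9 and 8.4 kb lay beyond the gene, within Thra. Apart from these 3, the largest difference of the window was -0.70, smaller in size than the -0.84 inside Per2. The element 7.9 kb upstream had 7.67 against 8.08 (-0.41).

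In Phe21 liver the start of Nr1d1 was not listed. The peak 1.3 kb into the gene had 8.60 against 8.05 (0.55) and the upstream element at 7.9 kb had 8.55 against 7.95 (0.60), so both were higher where the liver libraries labelled Phe31 were lower. The small peak 6.6 kb into the gene, near its end, had 4.78 against 5.64 (-0.86) and was lower in both. Phe21 brain listed the corresponding pair as higher, 9.48 against 9.08 at 1.3 kb (0.40) and 9.72 against 9.30 at 7.4 kb upstream (0.42). Phe11 brain listed the start alone, with 10.01 against 10.23 (-0.22), close to the median of its listed promoters, and Phe11 liver listed none of its 12 Nr1d1 peaks.

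Dbp encodes a D-box activator, the output arm of the loop. RefSeq places it at chr7:45705100-45710203 on the plus strand, between Car11 and Sphk2, and Sphk2 overlaps its end. The peak at its start had 8.46 against 9.11 in the liver libraries labelled Phe31, a difference of -0.65 or 63.7% of wild type. The peak 5.5 kb from the start, which reaches over the end of Dbp into Sphk2, had 5.17 against 5.83 (-0.66). Only 8.97% of listed promoter peaks fell by more than the Dbp start. The broad peak over the start of Sphk2 had 9.47 against 9.81 (-0.34). In Phe21 liver the Dbp start was not listed, and the listed peaks of its window were the start of Car11, with 6.24 against 6.84 (-0.60), and a peak 11.2 kb from the Dbp start with 4.51 against 5.45 (-0.94). Phe11 liver listed none of its 4 Dbp peaks.

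In Phe21 brain the Dbp start was listed and higher, at 10.27 against 9.94 (0.33, or 126% of wild type), a smaller rise than in 91.5% of the 330 listed promoter peaks and lower than 0 when measured from the median of all listed peaks (0.40). In Phe11 brain all 4 listed peaks of the window were lower. The peak over the start, here a single one of 9416 bases that spans the whole gene, had 10.89 against 11.03 (-0.14), the start of Car11 9.47 against 9.64 (-0.17) and the start of Sphk2 9.19 against 9.37 (-0.18). The small upstream peak at 9.9 kb had 4.02 against 5.07 (-1.05). Measured from the median of all listed peaks of that comparison, the peak over the start would be higher.

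**Figure D4:**
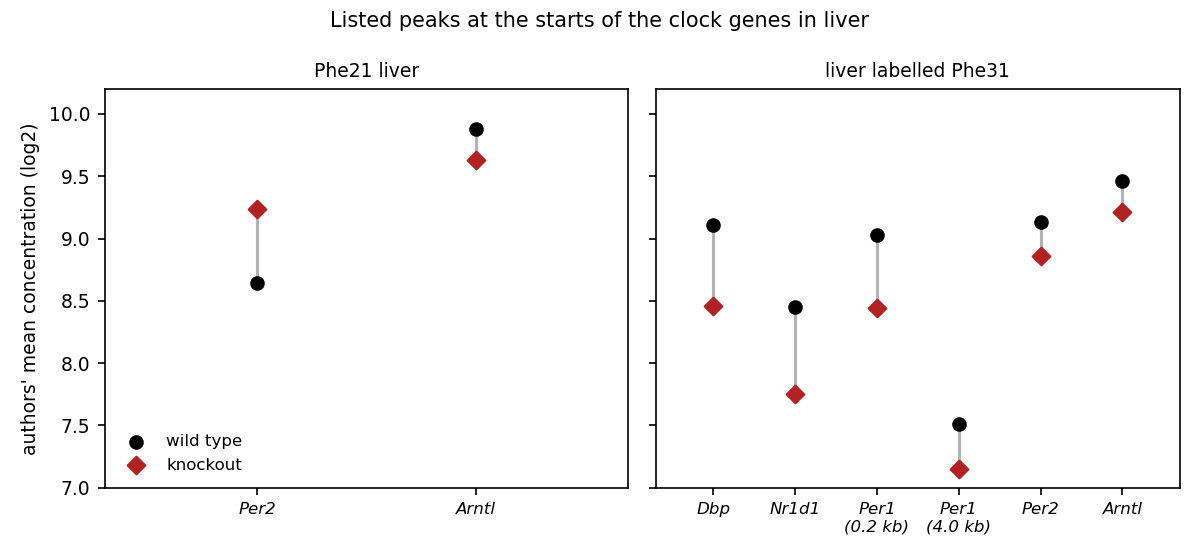
The authors' mean concentration (log2 of normalised reads) in wild type (circles) and knockout (diamonds) at each listed peak over a start of the 5 genes, for Phe21 liver and the liver libraries labelled Phe31, with the distance in kb from the upstream start given for the Per1 pair. All 6 in the liver libraries labelled Phe31 were lower in the knockout, from -0.70 at Nr1d1 to -0.25 at Arntl, of which the inner Per1 start, Per2 and Arntl turn higher when measured from the median of all listed peaks. In Phe21 liver Per2 was higher and Arntl lower.

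As inferred from the labels, the liver libraries labelled Phe31 and Phe21 liver share no library, so their listed peaks were laid side by side. Of the 13 listed clock peaks in Phe21 liver, 10 overlapped a listed peak in the liver libraries labelled Phe31, which is 76.9% of the former and 41.7% of the latter. In 8 of the 10 the directions were opposite, 6 in Per2 and 2 in Nr1d1. In the other 2, the start of Arntl and the small peak near the end of Nr1d1, both were lower. The same contrast held over the whole of both lists. There 32% of the peaks listed in Phe21 liver, and 26.9% of those listed in the liver libraries labelled Phe31, overlapped one of the other list. Of the 5208 overlapping pairs, 89% had opposite directions. The opposite directions were therefore not particular to the clock genes.

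A further question was whether the groups differed in time of day. Neither the labels nor the methods used here give the hour at which a mouse was killed, only that the mice were kept on a light-dark cycle with food at all times. A test over libraries needs a value for each of them, and the peaks carry group means. Time of day, feeding before collection and genotype therefore cannot be told apart here, and a difference in time of day was not tested. The same holds for batch in Phe21 liver, where the 3 knockout livers were all from batch 1 and the wild-type livers were 2 from batch 1 and 1 from batch 2.

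Other genes of the clock and its outputs were taken from 6 lists of 42 genes in all, with 5 kb on each side of each gene. Of their 392 peaks in the liver libraries labelled Phe31, 107 were listed (27.3%), 38 higher and 69 lower. This share lay between that of all peaks (18.9%) and that of promoter peaks (36%), and the 64.5% of listed peaks that were lower stood beside 63.9% over all listed peaks. In Phe21 liver 101 of 448 were listed (22.5%), 68 higher and 33 lower, beside 14.4% of all peaks and 17.9% of promoter peaks, and 32.7% of those listed were lower beside 49.2% over all listed peaks. In Phe11 liver 22 of 458 were listed (4.8%), 18 higher and 4 lower, beside 4.14% of all peaks, and 18.2% of those listed were lower beside 52.9% over all listed peaks. In Phe11 brain 92 of 561 were listed (16.4%), 16 higher and 76 lower, beside 16.3% of all peaks, and 82.6% of those listed were lower beside 75.2%. Phe21 brain listed 3 of 480 (0.625%), beside 0.711% of all peaks, and Phe31 brain 0 of 480.

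**Figure D5:**
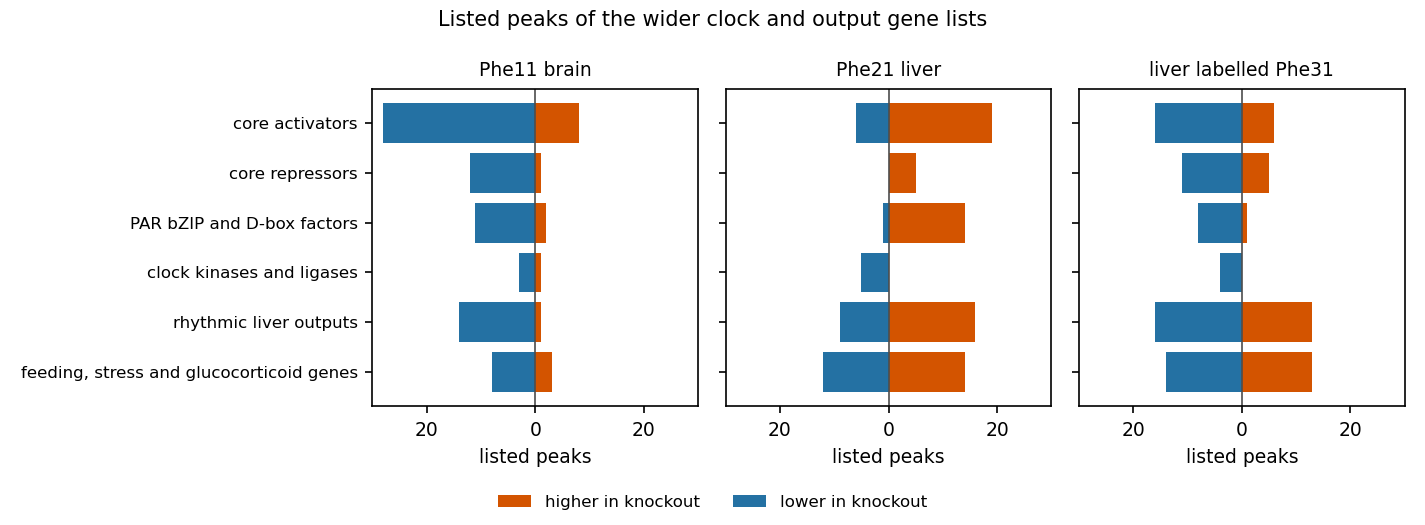
Bars count the listed peaks within 5 kb of the genes of each list, higher to the right and lower to the left, in Phe11 brain, Phe21 liver and the liver libraries labelled Phe31. The 6 lists together had 68 higher and 33 lower in Phe21 liver, and 38 higher and 69 lower in the liver libraries labelled Phe31.

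The list of D-box factors, relatives and competitors of Dbp, had 14 higher and 1 lower of 40 peaks in Phe21 liver, beside 7.29% and 7.07% of all peaks, and 1 higher and 8 lower of 31 in the liver libraries labelled Phe31, beside 6.85% and 12.1%. A single gene, Hlf, gave 10 of the 14 and 5 of the 8, and Tef had 1 higher and 1 lower in Phe21 liver. The core repressors had 5 higher and 11 lower of 46 in the liver libraries labelled Phe31, where Bhlhe40 had 3 of its 5 listed peaks higher, up to 1.84. The clock kinases and ligases had 0 higher and 5 lower of 49 in Phe21 liver and 0 higher and 4 lower of 38 in the liver libraries labelled Phe31.

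At gene starts, a promoter entry was at hand for 31 of the 42 genes, and 29 of these had a peak there in the liver libraries labelled Phe31. Listed were 15 of these 29 genes, 3 higher and 12 lower, beside 36% of all promoter peaks listed and 79% of the listed ones lower, so the direction was that of promoters in general. A gene was counted as listed for any listed peak over any of its promoter entries. Such counts of genes are therefore not like shares of single peaks. The repressors Per3 (8.0 against 8.55, -0.55), Cry2 (8.30 against 8.73, -0.43, with another peak of the gene higher by 1.30), Ciart (7.84 against 8.43, -0.59) and Bhlhe41 (6.03 against 6.58, -0.55) were lower by more than the median of all listed peaks. Nr1d2, the sister gene of Nr1d1, was lower by less (9.96 against 10.29, -0.33), with another peak of the gene higher by 0.82. Tef, a relative of Dbp, was lower at both of its start peaks, by -0.38 and -0.62. Npas2, which encodes a partner of BMAL1 and is, like Arntl, repressed by REV-ERB alpha, was higher, with 8.87 against 8.34 (0.53). Clock had 9.0 against 9.19 (-0.19), and Nfil3, which competes with DBP for D-boxes, 9.01 against 9.24 (-0.23), both smaller falls than the median.

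In Phe21 liver 12 of 29 genes were listed at their start, 9 higher and 3 lower, beside 17.9% of all promoter peaks listed and 65.2% of the listed ones higher. These too are genes set beside single peaks. Cry2 had 8.69 against 8.30 (0.39) and Bhlhe41 8.26 against 7.69 (0.57), both higher where the liver libraries labelled Phe31 were lower. Hlf, another relative of Dbp, had 6.03 against 5.21 (0.82), and Rgs16, a rhythmic regulator of G protein signalling, 6.92 against 6.12 (0.80). Rora, an activator at ROREs, was lower at its start, with 4.76 against 5.53 (-0.77), while over the whole gene 16 of its 20 listed peaks were higher and the median was 0.61. In Phe21 brain the 3 listed starts were all higher, Nr1d2 by 0.46, Bhlhe41 by 0.47 and Fkbp5, a gene induced by glucocorticoids, by 0.56, as were 97.9% of all listed promoter peaks there. In Phe11 liver the 3 were also higher, Por by 0.30, Alas1 by 0.71 and Rgs16 by 0.66, beside 55.6% of listed promoters. In Phe11 brain the 7 were all lower, from -0.61 at Sgk1 to -0.15 at Tef, as were 92.7% of listed promoters.

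The list of feeding, stress and glucocorticoid genes held the largest listed difference at a start among these genes. Pck1, which encodes the enzyme that commits carbon to glucose synthesis in fasting, had a peak over its start and body with 12.58 against 10.31 in the liver libraries labelled Phe31, a difference of 2.27 or 482% of wild type. All 4 listed Pck1 peaks were higher there, and all 3 listed in Phe21 liver were lower, down to -1.34. Among peaks not matched to a promoter entry, the largest differences in the liver libraries labelled Phe31 were 2.49 for G6pc, 2.38 for Igfbp1 and 2.81 for Elovl3. G6pc encodes the enzyme that releases glucose from liver, and Igfbp1 is repressed by insulin. Elovl3 is a rhythmic gene of fatty acid elongation from the list of liver outputs. The Igfbp1 peak was small (5.24 against 2.86), and G6pc had 1 lower peak there and Igfbp1 2. Angptl4 and Fkbp5 of the feeding list were lower there in all 3 and all 4 listed peaks. In Phe21 liver Elovl3 was lower (-1.36), but G6pc had 2 of 2 listed peaks higher and Igfbp1 3 of 4. Elovl3 was also lower in Phe11 liver (-1.75). The feeding list as a whole had 13 higher and 14 lower of 83 peaks in the liver libraries labelled Phe31, beside 6.85% and 12.1% of all peaks. It had 14 higher and 12 lower of 88 in Phe21 liver, beside 7.29% and 7.07%. Whether feeding or its time bears on the clock gene peaks was not tested.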

How the data were processed

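ATAC-seq was measured on nuclei of brain and liver. Reads were trimmed by the authors (Trim Galore 0.6.4, cutadapt 1.18) and mapped with Bowtie2 2.4.1 against GRCm38.p6. The authors then removed duplicates with Picard 2.23.8, filtered with SAMtools 1.10, kept short nucleosome-free fragments with deepTools 3.5.0, called peaks per group with Genrich 0.6 and compared groups with DiffBind 3.0.8 and DESeq2. The deposited peak tables give the authors' log2 concentration of each group, the log2 of mean normalised reads, for peaks at a false discovery rate of at most 0.05. Their fold changes, p-values and false discovery rates were not used beyond a check of that threshold and of direction. The deposited consensus lists carry a score of unstated scale, of which only ranks were used, and in the labelled Phe31 liver list that column holds the peak width in bases. The normalised signal at tRNA loci is the authors' read count over a size factor per library. A concentration column headed Phe11 in the Phe21 tables and the Phe31 brain table was taken as the knockout of that table.

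Here peaks were intersected with the 5 windows, by at least 1 base, and differences of concentrations were computed with pandas 2.3.3 in Python 3.11.15. Group means carry no library spread, so no test was run. Library depth over peaks is unknown; over the 401 tRNA loci the 4 wild-type livers of the Phe11 table held 6186 to 9739 reads, recovered as whole multiples within 0.01 for 100% of values. A start was a RefSeq start of GRCm38.p6. All 5 genes were named with every listed peak or their range, and genes of the wider lists were named if listed in at least 2 comparisons, which 35 of 42 were, with examples taken from those listed at their start and from those with the largest differences, chosen after their values were seen. A count of likeness to Dbp rises with the number of listed peaks of a gene and is not reported. Overlap counting was tested on simulated peaks. The genes, windows and lists were chosen with earlier results of these data known. Alternatives were other windows, a 1.5-fold minimum, merging of peaks under 500 bases apart and centring on the median of all listed peaks. Leaving out peaks at the starts of other genes was added after the data were seen.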

Additional observations from a re-analysis of the deposited data

How the results depend on the processing

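Of 70 alternatives to the counts, 58 stayed within 1.5 times the reported count. With a minimum of 1.5-fold, the listed clock gene peaks were 9 in Phe11 brain, 0 in Phe21 brain, 1 in Phe11 liver and 6 in Phe21 liver, and those of the wider lists were 0 in Phe21 brain and 67 in the liver libraries labelled Phe31. With windows of each gene plus 2 kb, Phe21 brain kept 2 peaks. Merging peaks under 500 bases apart gave 58 consensus peaks in Phe31 brain, 40 in Phe11 liver and 41 in the liver libraries labelled Phe31. Measured from the median of all listed peaks, the lower peaks were 4 in Phe11 brain and 1 in Phe21 brain, by construction of the shift. Without peaks at the starts of other genes, chosen after the data were seen, 19 of 21 were lower in the liver libraries labelled Phe31.

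No paired analysis was possible because the deposited peak values are group means, on which no test could be run here, and fits without single libraries, wild-type livers 1 and 22 included, could not be run for the same reason. A peak that was not listed may differ by an amount that these group sizes could not show.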
